A study of Mus musculus with 12 samples.

Results

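Oxidative phosphorylation is carried out in the inner mitochondrial membrane by 4 electron transfer complexes and an ATP synthase. Complex I (NADH dehydrogenase) and complex II (succinate dehydrogenase) pass electrons to ubiquinone, complex III passes them to cytochrome c, complex IV (cytochrome c oxidase) passes them to oxygen, and complex V (ATP synthase) makes ATP from the proton gradient that complexes I, III and IV build. In oocytes, which take up little glucose, this chain is the main source of ATP and works largely on pyruvate handed over by the surrounding cumulus cells. The nuclear genes of the chain were taken by symbol from the count table: those beginning with Nduf, Uqcr, Cox4 to Cox8 or Atp5, and Sdha to Sdhd. The rule found 92 of 24562 genes. By complex, 36 belonged to complex I, 4 to complex II, 8 to complex III, 20 to complex IV and 16 to complex V, and 8 were complex I assembly factors (Ndufaf1 to Ndufaf8). Ndufa4 and Ndufa4l2 were counted with complex IV, where the NDUFA4 protein resides, although they carry a complex I name. The 13 mitochondrially encoded subunits were not analysed here.

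RNA-Seq was performed on oocytes of CD-1 mice (Mus musculus) at postnatal day (PND) 13, PND 16 and PND 40. The PND 16 mice were divided by body weight into a lighter cohort (PND 16 small) and a heavier cohort (PND 16 large). Each of the 4 cohorts had 3 pools of 18 to 45 oocytes, which gave 12 pools. No mouse was stimulated with gonadotropins, and no genotype or drug differed between the cohorts: all oocytes were released from antral follicles, held with milrinone to keep meiosis arrested, and freed of cumulus cells by pipetting. The study regards PND 13 and PND 16 small oocytes as lacking meiotic competence (the ability to resume meiosis and go on to metaphase of the second division) and PND 16 large and PND 40 oocytes as having it, and these 2 classes of 6 pools are called non-competent and competent below. Age and the size of the mouse differ between the classes together with competence, and these cannot be told apart.

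Sequencing depth was 17671193 to 24762189 counted reads in non-competent pools and 23422996 to 27418358 in competent pools. All 11 oocyte markers examined were abundant in every pool, with a summed level of 13726 to 16936 CPM (a gene's count scaled to a common library size of 1e6 reads by the TMM method). The 5 blood and endothelium markers summed to 52.2 to 64.6 CPM in all pools, with the hemoglobin genes Hbb-bs and Hba-a1 at 0. The 6 theca markers summed to 17.9 to 82.0 CPM in non-competent and 9.0 to 14.2 CPM in competent pools. Granulosa and cumulus cell genes were uneven: the 12 markers summed to 157 to 211 CPM in competent pools, and to 484 and 558 CPM in PND 13 replicates 1 and 3 and 538 CPM in PND 16 small replicate 2, against 130 to 258 CPM in the other 3 non-competent pools. Of these 12 markers 3 were lower and 0 higher in competent oocytes in edgeR without a fold criterion, beside 16.5% and 14.2% of all genes. The estimates of 11 of the 12 were below 0, and their median log2 fold change was -1.47. The 45S ribosomal RNA gene Rn45s took 1.46 to 2.98% of the counts in non-competent and 0.520 to 0.954% in competent pools. A level here is a share of the counted RNA of a pool, so fewer cells of a type and less RNA per cell cannot be told apart.

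The 92 genes together took 0.178 to 0.235% of the counts in non-competent pools and 0.217 to 0.246% in competent pools, and these ranges overlapped. The lowest share was that of PND 16 small replicate 3. Of the 92 genes, 83 passed the filter on low counts and were tested. Their level per kilobase of transcript, averaged over the 12 pools, spanned 0.163 to 127 CPM per kb. The highest levels were in complex V: Atp5a1, the alpha subunit of the ATP synthase head, was at 127 CPM per kb, and Atp5b, the beta subunit that carries the catalytic sites, was at 117 CPM per kb. In complex IV the highest level was that of Cox5a, a matrix-side structural subunit, at 96.0 CPM per kb. Uqcrc2, a core protein of complex III, had 81.6 CPM per kb, and its partner Uqcrc1 had 11.6 CPM per kb. The highest in complex II was Sdhd, a membrane anchor, at 52.2 CPM per kb. In complex I the highest was Ndufa9, an accessory subunit, at 49.0 CPM per kb. Among the assembly factors Ndufaf4 was highest at 23.4 CPM per kb.

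**Figure D1:**
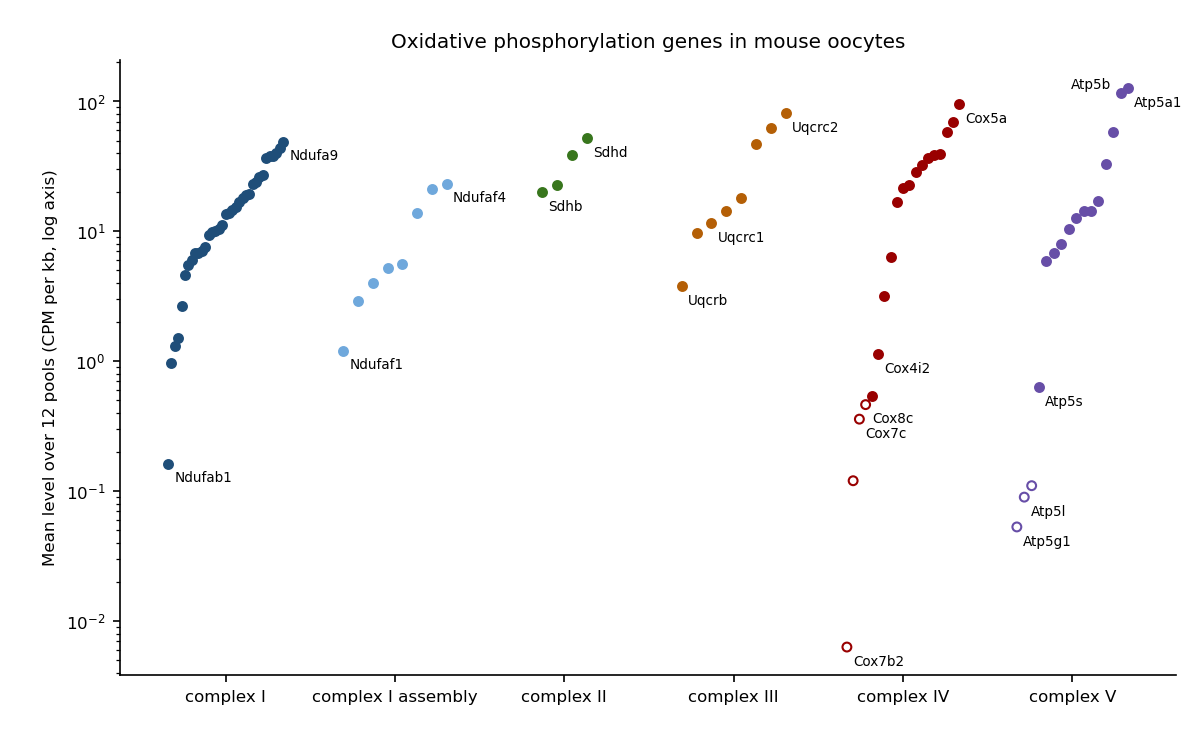
Mean level over the 12 pools of the oxidative phosphorylation genes, in CPM per kilobase of transcript on a log axis, by complex, with 1 point for each gene. Filled points are the tested genes and open points those with too few counts to test; Ndufs5 and Cox8b, at 0 in every pool, are not drawn. The tested genes lie between 0.163 and 127 CPM per kb.

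At the low end, Ndufab1, the mitochondrial acyl carrier protein, was lowest in complex I at 0.163 CPM per kb. The lowest tested genes elsewhere were Ndufaf1 at 1.21 CPM per kb among the assembly factors, Sdhb at 19.9 in complex II, Uqcrb at 3.80 in complex III, Ndufa4l2 at 0.539 in complex IV and Atp5s at 0.630 in complex V. The 4 genes of complex II spanned 19.9 to 52.2 CPM per kb. The other 9 genes could not be tested. Ndufs5 and Cox8b had 0 reads in the 12 pools together, where a count of 0 allows up to 3 reads over the series. Cox7b2 had 1 read, Atp5l 14, Cox7a1 15, Atp5g2 19, Atp5g1 41, Cox7c 49 and Cox8c 60. Ndufs5, Cox7c and Atp5l encode subunits that are found in the complexes of most tissues.

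Part of this low end coincided with sequence shared with other genes. Each transcript was divided into all of its 50-base words, the length of the reads, and the share found in transcripts of a gene elsewhere in the genome was counted. That share was 87.4% for Atp5g2, 68.5% for Atp5l, 23.0% for Cox7c, 22.9% for Ndufs5, 11.1% for Atp5g1 and 9.82% for Ndufab1. It was below 1% for 60 of the 92 genes, including Cox7a1, Cox7b2, Cox8b and Cox8c at 0%. Atp5g2 and Atp5l were the 2 genes with over 50% of their words shared. Among the tested genes the share reached 43.2% for Uqcrb and 38.8% for Atp5h. How reads with several matches were counted is not given in the sources used here, so the levels of these genes are uncertain, and the part of shared sequence in them was not tested.

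The comparison of competent with non-competent oocytes asks which genes of the chain differ with meiotic competence. Uqcrc1, a core protein of complex III, was lower in competent oocytes, and the complex I assembly factor Ndufaf1 was lower as well, whereas the complex I assembly factor Ndufaf6 was higher. These 3 of the 83 tested genes met the study's criteria, a fold change of at least 1.5 and an adjusted p of at most 0.05 in edgeR's quasi-likelihood test. Over all 13943 genes tested, 15.0% met them. Without the fold criterion, 15 of 83 genes (18.1%) were higher and 3 (3.61%) were lower in competent oocytes, against 14.2% and 16.5% of all genes. The median log2 fold change of the 83 genes was 0.127, beside -0.00458 over all genes tested, and 63 of the 83 estimates were above 0. The share of higher genes was near that over all genes, and the share of lower genes was below it.

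By complex, the median log2 fold change in competent oocytes was 0.309 for the 8 assembly factors, 0.249 for the 4 complex II genes, 0.175 for the 8 complex III genes, 0.145 for the 15 tested genes of complex IV, 0.0935 for the 35 of complex I and 0.00778 for the 13 of complex V. The genes that were higher without the fold criterion included Sdhc and Sdhd in complex II, Uqcrh and Uqcrq in complex III, Cox5a, Cox6a1, Cox7a2 and Cox7a2l in complex IV, Ndufa8 and Ndufc2 in complex I, Ndufaf2, Ndufaf4 and Ndufaf6 among the assembly factors, and Atp5e in complex V. Those not covered by the rule for named genes were listed after their values were seen. Of the genes listed, Sdhc, Sdhd, Uqcrq, Cox6a1, Cox7a2, Cox7a2l, Ndufa8 and Ndufaf6 did not pass by adjusted p in PND 40 vs. PND 13. Atp5g3 was the lower gene beside Uqcrc1 and Ndufaf1. When PND 13 replicates 1 and 3 and PND 16 small replicate 2, the pools highest in granulosa markers, were left out, 8 genes were higher and 1 was lower. The count of lower genes also fell to 1 without PND 13 replicate 3 alone and without PND 40 replicate 2 alone. How many of all genes passed in these refits was not counted, so a fall particular to these genes cannot be read from them.

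**Figure D2:**
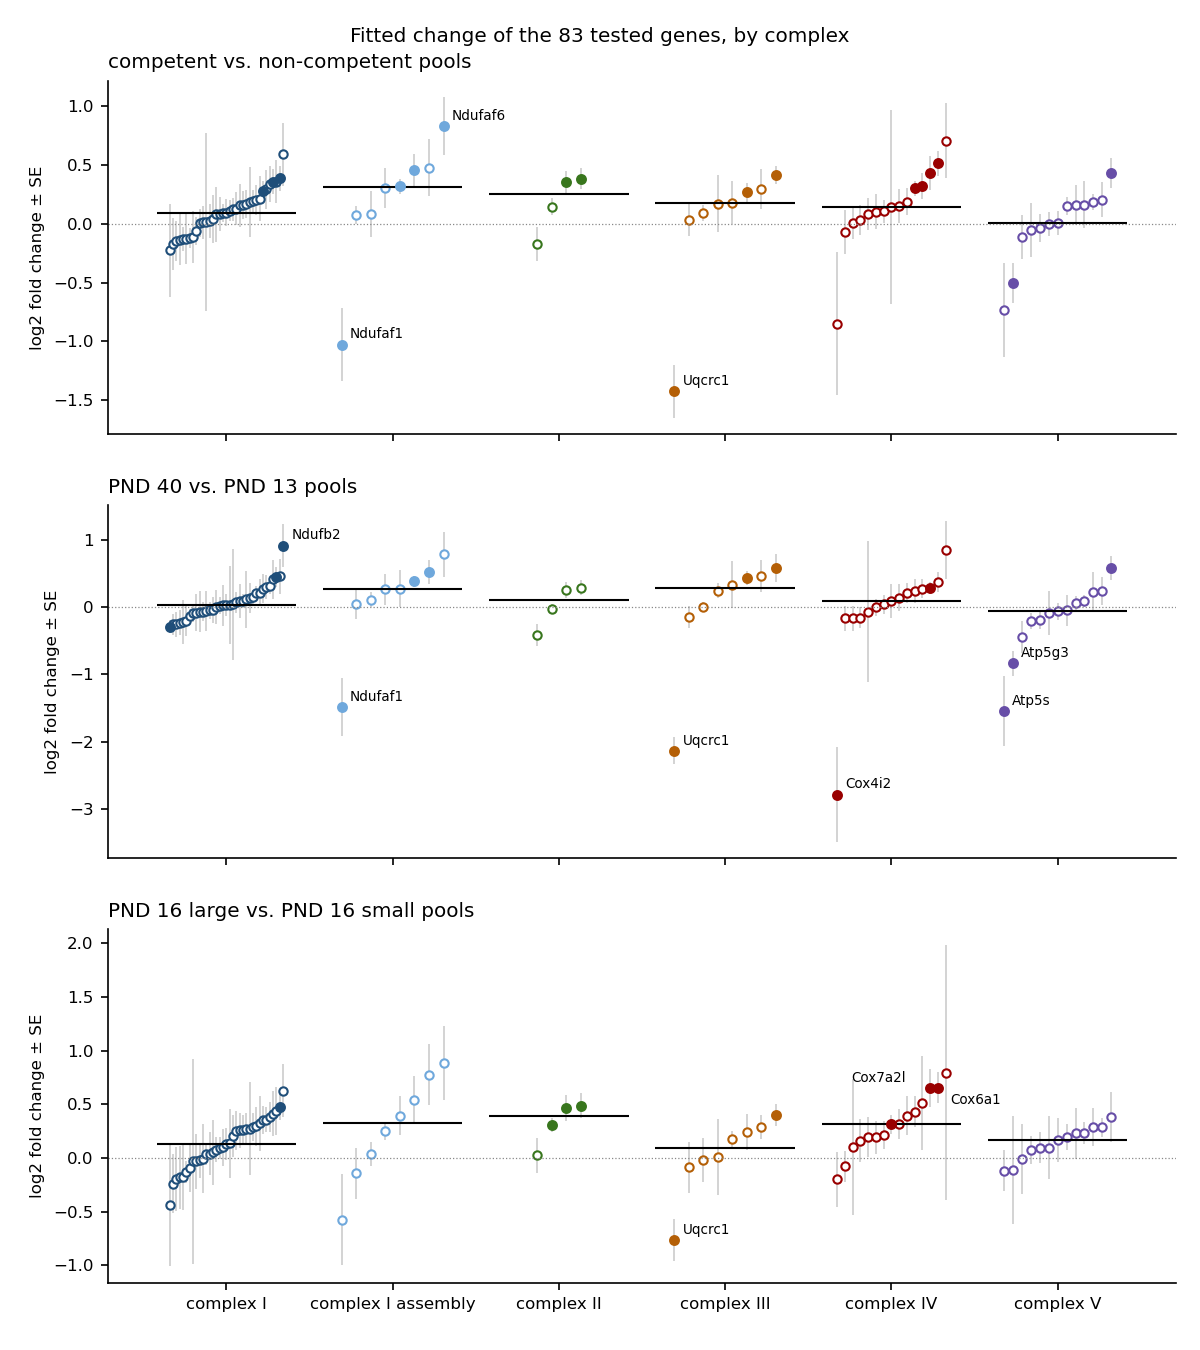
Fitted log2 fold change (points) with its standard error (bars) of the 83 tested genes by complex, in 3 comparisons: competent vs. non-competent, PND 40 vs. PND 13, and large vs. small at PND 16. Filled points have an edgeR adjusted p of at most 0.05, named points also pass 1.5-fold, and the black line is the median of the complex. Uqcrc1 lies apart from the rest of complex III in all 3 panels, at -1.42, -2.13 and -0.77.

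Uqcrc1, on chromosome 9 (108936633 to 108949623, plus strand, mm10), had the smallest adjusted p of the 83 genes both between the competence classes and between PND 40 and PND 13. In PND 13 pools it was at 26.9, 33.1 and 40.4 CPM. In PND 16 small pools it was at 29.5, 19.2 and 18.8 CPM. In PND 16 large pools it was at 12.2, 14.6 and 13.1 CPM, and in PND 40 pools at 8.02, 6.57 and 8.27 CPM. The PND 13 and PND 16 small pools overlapped, and every competent pool was below every non-competent pool, with the PND 40 pools below those of PND 16 large. The log2 fold change of competent vs. non-competent oocytes was -1.42 ± 0.23 (SE, edgeR adjusted p = 0.000501), a level 0.373 times as high. PND 40 vs. PND 13 gave -2.13 ± 0.20 (edgeR adjusted p = 2.6e-05), or 0.228 times. PND 16 large vs. PND 16 small gave -0.77 ± 0.19 (edgeR adjusted p = 0.0232) and PND 40 vs. PND 16 large gave -0.80 ± 0.20 (edgeR adjusted p = 0.0298). PND 16 small vs. PND 13 gave -0.57 ± 0.19 (edgeR adjusted p = 0.126), which did not pass.

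The first 2 of these calls held without any of the pools compared, with log2 fold changes of -1.55 to -1.29 for competent vs. non-competent and -2.27 to -1.97 for PND 40 vs. PND 13. Without the 3 pools highest in granulosa markers they were -1.38 (edgeR adjusted p = 0.00371) and -2.11 (edgeR adjusted p = 0.000964). In all fits of PND 40 vs. PND 13 without these pools, PND 13 is represented by 1 pool, replicate 2, which is assumed to vary as the other cohorts do, so their p-values do not decide a call. PND 13 replicate 2, the pool lowest in those markers, had an Uqcrc1 level between those of its cohort. The call within PND 16 was lost without PND 16 small replicate 1 or any of the 3 PND 16 large pools (log2 fold changes of -0.83 to -0.52, edgeR adjusted p = 0.0567 to 0.111). PND 40 vs. PND 16 large was lost without any of its 6 pools, at -0.86 to -0.70 (edgeR adjusted p = 0.0643 to 0.124).

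The other genes of complex III had other patterns. Uqcrc2, which forms the core of the complex together with Uqcrc1, was at 140, 159 and 147 CPM in PND 13, at 161, 149 and 144 CPM in PND 16 small, at 182, 167 and 162 CPM in PND 16 large and at 157, 151 and 138 CPM in PND 40 pools. These cohorts overlapped except that all PND 16 large pools were above the other cohorts. Competent and non-competent pools overlapped, and the log2 fold change between them was 0.09 ± 0.07 (edgeR adjusted p = 0.347). Uqcrfs1, the Rieske iron-sulfur protein, was at 23.3, 30.7 and 29.1 CPM in PND 13, 26.4, 19.3 and 16.8 CPM in PND 16 small, 23.9, 25.7 and 24.5 CPM in PND 16 large and 28.8, 24.9 and 21.3 CPM in PND 40 pools, and its cohorts overlapped. Uqcrh, the hinge protein at the cytochrome c side, was at 17.9 to 20.5 CPM in non-competent and 24.5 to 26.1 CPM in competent pools, with no overlap. Its log2 fold change was 0.42 ± 0.08 (edgeR adjusted p = 0.000984). Cyc1, the cytochrome c1 of the same complex, which the symbol rule does not take in, was lower in PND 40 vs. PND 13 (-0.79 ± 0.19, edgeR adjusted p = 0.00634), and competent vs. non-competent gave -0.40 ± 0.17 (edgeR adjusted p = 0.0914).

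**Figure D3:**
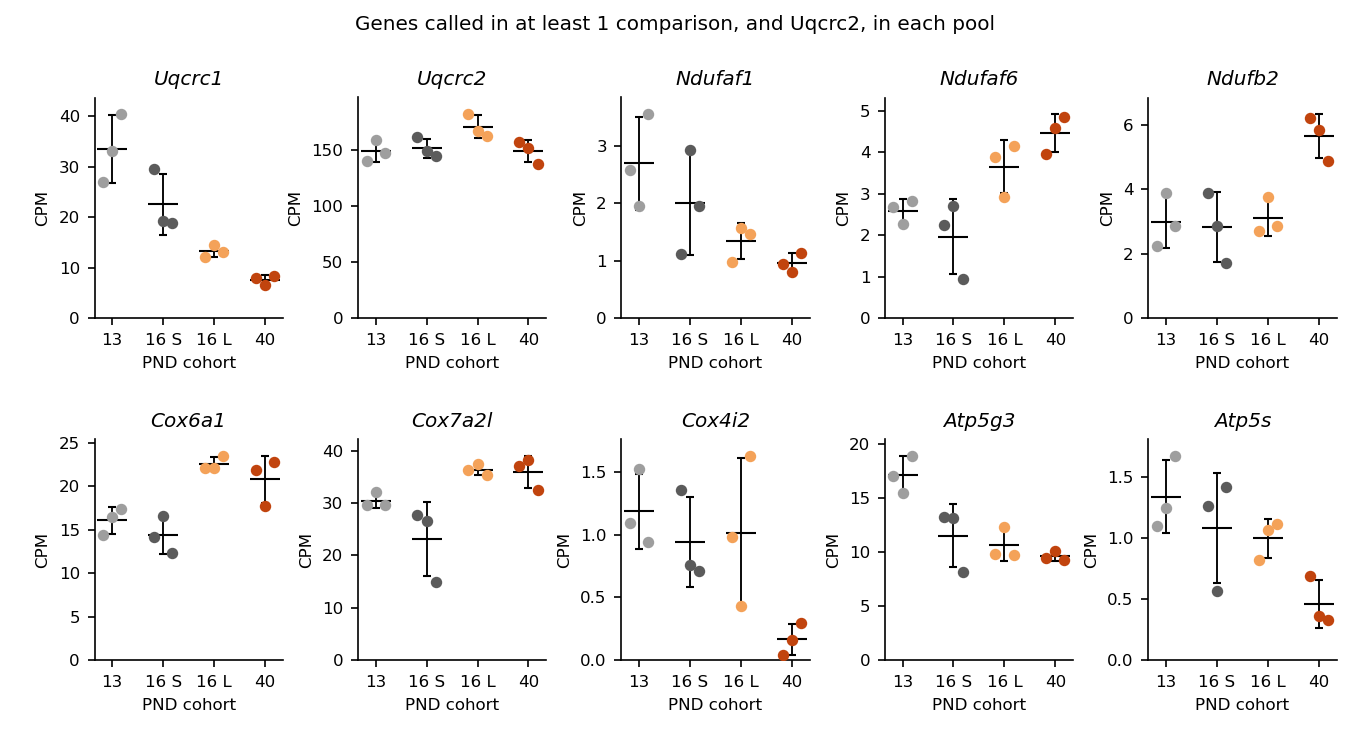
CPM in each of the 12 pools (points, in replicate order) with the cohort mean and SD (bars, n = 3) of the 9 genes that met the study's criteria in at least 1 comparison, and of Uqcrc2. On the axis, 16 S and 16 L are PND 16 small and PND 16 large, and the CPM axes start at 0. Uqcrc1 is at 18.8 to 40.4 CPM in the 6 non-competent pools and at 6.57 to 14.6 CPM in the 6 competent pools, while Uqcrc2 stays between 138 and 182 CPM.

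The assembly factors of complex I moved in different directions. Ndufaf1, which acts on an early membrane-arm intermediate, was at 2.58, 1.95 and 3.56 CPM in PND 13, 1.12, 2.94 and 1.96 CPM in PND 16 small, 0.982, 1.58 and 1.47 CPM in PND 16 large and 0.944, 0.796 and 1.14 CPM in PND 40 pools. Competent and non-competent pools overlapped at PND 16. The log2 fold change was -1.03 ± 0.31 (edgeR adjusted p = 0.0205) for competent vs. non-competent and -1.48 ± 0.43 (edgeR adjusted p = 0.0169) for PND 40 vs. PND 13. The 3 highest values were those of the 3 pools highest in granulosa markers. Without these pools the log2 fold changes were -0.53 (edgeR adjusted p = 0.327), where the call was lost, and -1.02 (edgeR adjusted p = 0.244), with 1 PND 13 pool. The call on the competence classes was also lost without PND 13 replicate 3 or PND 40 replicate 2, at -0.94 to -0.87 (edgeR adjusted p = 0.0506 to 0.0594). That on PND 40 vs. PND 13 was lost without PND 13 replicate 3, PND 40 replicate 1 or PND 40 replicate 2, at -1.47 to -1.23 (edgeR adjusted p = 0.0552 to 0.0815).

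Ndufaf6, needed for making the membrane arm subunit ND1, was at 2.67, 2.27 and 2.82 CPM in PND 13, 2.24, 2.70 and 0.949 CPM in PND 16 small, 3.89, 2.92 and 4.14 CPM in PND 16 large and 3.95, 4.58 and 4.85 CPM in PND 40 pools. Every competent pool was above every non-competent pool. The log2 fold change was 0.83 ± 0.25 (edgeR adjusted p = 0.0204), and this call was kept without any of the 12 pools, at 0.66 to 0.90, and without the pools highest in granulosa markers, at 1.15 (edgeR adjusted p = 0.0235). Ndufaf4, the most abundant assembly factor, rose less, from 70.4 to 79.8 CPM in non-competent pools to 87 to 101 CPM in competent pools, by 0.32 ± 0.06 on the log2 scale (edgeR adjusted p = 0.00221).

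Within complex I itself, subunits of the electron path were described first. Ndufs1, the largest iron-sulfur subunit, was lower in PND 40 vs. PND 13 (-0.29 ± 0.10, edgeR adjusted p = 0.0358), with 38.6, 37.1 and 40.4 CPM in PND 13 and 32.2, 32.2 and 30.5 CPM in PND 40 pools. It passed without PND 13 replicate 2, but not without any 1 of the other 5 pools, nor without the pools highest in granulosa markers, with no filter on low counts or with the replicate number as a block. Ndufv1, the subunit that binds NADH, was at 60.6 to 65.5 CPM in 5 non-competent pools and at 33.2 CPM in PND 16 small replicate 3. Its competent pools were at 50.6 to 66.3 CPM and overlapped with the non-competent ones (0.02 ± 0.14, edgeR adjusted p = 0.921). Ndufv2, Ndufs3, Ndufs7 and Ndufs8, which belong to the same path, did not pass in any of the 5 comparisons. Ndufb2, a small accessory subunit, met the study's criteria in PND 40 vs. PND 13, with 2.24, 3.87 and 2.87 CPM in PND 13 and 6.22, 5.85 and 4.89 CPM in PND 40 pools. Its log2 fold change was 0.91 ± 0.32 (edgeR adjusted p = 0.0404). This call was lost without PND 13 replicate 1 or 3 or any PND 40 pool (0.75 to 1.01, edgeR adjusted p = 0.0609 to 0.137), and without the pools highest in granulosa markers it was 0.55 (edgeR adjusted p = 0.453, with 1 PND 13 pool).

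Complex II oxidizes succinate in the citric acid cycle and is the complex without mitochondrially encoded subunits. Its genes were compared between the 2 PND 16 cohorts, mice of the same age that differ in weight. Sdha, the flavoprotein, was at 101, 111 and 97.1 CPM in small and 132, 125 and 125 CPM in large pools. Sdhc, a membrane anchor, was at 38.0, 40.0 and 30.7 CPM in small and 54.1, 49.8 and 48.8 CPM in large pools. Sdhd, the other anchor, was at 58.6, 55.5 and 41.1 CPM in small and 71.7, 71.4 and 71.4 CPM in large pools. For these 3 genes no small pool reached a large pool, and the lowest value was that of PND 16 small replicate 3 each time. Sdha was higher by 0.31 ± 0.07 (edgeR adjusted p = 0.0119), Sdhc by 0.49 ± 0.11 (edgeR adjusted p = 0.0152) and Sdhd by 0.47 ± 0.12 on the log2 scale (edgeR adjusted p = 0.0247), all below the 1.5-fold criterion. Sdhb, the iron-sulfur protein, was at 27.8, 19.4 and 26.5 CPM in small and 24.8, 25.9 and 24.2 CPM in large pools, which overlapped. Its PND 40 pools, at 19.9, 17.7 and 15.9 CPM, were all below the large pools. PND 40 vs. PND 16 large did not pass for Sdhb in the main fit. By adjusted p alone it was lower with DESeq2, with only the 6 pools and without the pools highest in granulosa markers, and not under the other settings. In PND 40 pools Sdha was at 109, 106 and 108 CPM, lower than in PND 16 large pools with a log2 fold change of -0.24 ± 0.07 (edgeR adjusted p = 0.0465), a call that was lost without any 1 of the 6 pools.

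In PND 16 large vs. PND 16 small as a whole, 3 of 83 genes met the study's criteria, against 6.19% of all genes. These were Uqcrc1 and, higher in large pools, Cox6a1 and Cox7a2l. By adjusted p alone, 8 of the 83 (9.64%) were higher and 1 (1.20%) was lower, against 4.98% and 7.32% of all genes, and the median log2 fold change was 0.192 beside -0.0181 over all genes. The complex II median was 0.387. The count of higher genes fell to 5 without PND 16 small replicate 3, and to 1, 3 and 4 without PND 16 large replicates 1, 2 and 3. Of the complex II genes, 2 were still higher without PND 16 small replicate 3, PND 16 large replicate 2 or PND 16 large replicate 3, and 0 without PND 16 large replicate 1. With only the 6 PND 16 pools in the fit, 1 gene was higher. How many of all genes passed by adjusted p alone in these refits was not counted.

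Complex IV holds most of the tissue-specific isoforms of the chain. Cox6a1, the general form of subunit VIa, was at 14.4, 16.5 and 17.4 CPM in PND 13, 14.2, 16.6 and 12.3 CPM in PND 16 small, 22.1, 22.2 and 23.5 CPM in PND 16 large and 21.9, 17.8 and 22.8 CPM in PND 40 pools. Every competent pool was above every non-competent pool, PND 40 replicate 2 by the narrowest margin. The log2 fold change was 0.51 ± 0.11 (edgeR adjusted p = 0.00272) for competent vs. non-competent and 0.65 ± 0.14 (edgeR adjusted p = 0.0123) for PND 16 large vs. PND 16 small. Without PND 16 small replicate 3 the latter was 0.55 and no longer 1.5-fold (edgeR adjusted p = 0.0426). Cox7a2l, which joins complexes III and IV into supercomplexes, was at 29.6, 32.2 and 29.6 CPM in PND 13, 27.7, 26.6 and 15.0 CPM in PND 16 small, 36.4, 37.4 and 35.4 CPM in PND 16 large and 37.1, 38.3 and 32.4 CPM in PND 40 pools. Competent pools were again above non-competent pools without overlap. PND 16 large vs. PND 16 small gave 0.65 ± 0.18 (edgeR adjusted p = 0.0312), a call that was lost without PND 16 small replicate 3 or any of the PND 16 large pools (0.42 to 0.67, edgeR adjusted p = 0.0358 to 0.104). Cox5a, with 52.8 to 59.4 CPM in non-competent and 63.3 to 73.0 CPM in competent pools, was higher by 0.30 ± 0.06 (edgeR adjusted p = 0.00297), which no longer passed without the pools highest in granulosa markers. Cox5b, the zinc-binding subunit, was at 4.18 to 5.10 CPM in non-competent and 4.59 to 5.77 CPM in competent pools and did not pass in any comparison.

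Cox4i2, the form of subunit IV best known from lung and from low oxygen, was close to absent in PND 40 oocytes. Its read counts were 23, 39 and 23 in PND 13, 28, 16 and 12 in PND 16 small, 24, 11 and 41 in PND 16 large and 1, 4 and 8 in PND 40 pools. In CPM, the PND 40 pools were at 0.0429, 0.159 and 0.294 and the other 9 pools at 0.434 to 1.63, without overlap. The log2 fold change was -2.78 ± 0.71 (edgeR adjusted p = 0.00894) in PND 40 vs. PND 13, kept without any of the 6 pools at -3.47 to -2.36, and -2.56 ± 0.71 (edgeR adjusted p = 0.0466) in PND 40 vs. PND 16 large. The second call was lost without PND 16 large replicate 1 or 3 or any PND 40 pool (-3.25 to -2.05, edgeR adjusted p = 0.0678 to 0.198), and without the 3 pools highest in granulosa markers it was -2.56 (edgeR adjusted p = 0.0608). With counts this low the sizes of these changes are imprecise. Cox4i1, the general form, was at 38.5 to 59.7 CPM in all pools and did not pass in any comparison. As a mean over the pools of a cohort, Cox4i2 made up 2.34% of the level per length of this pair in PND 13, 1.89% in PND 16 small, 1.78% in PND 16 large and 0.345% in PND 40.

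**Figure D4:**
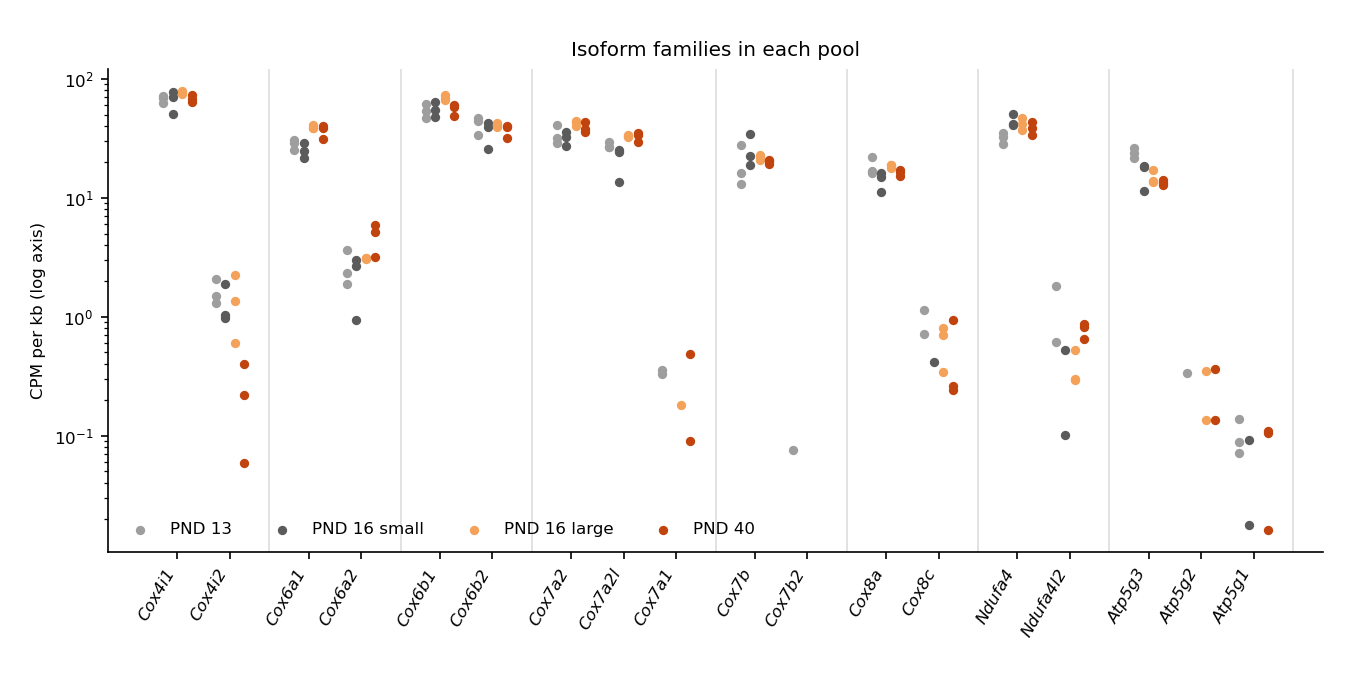
Level in each of the 12 pools, in CPM per kilobase of transcript on a log axis, of the isoform families of complexes IV and V, with 1 point for each pool colored by cohort. Pools at 0, and Cox8b, at 0 in every pool, are not drawn. The testis form Cox6b2 lies within the range of general forms, and Cox4i2 is lowest in the PND 40 pools.

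In the Cox6b and Cox7a families 2 forms each made up a large share, and in the others the general form was the main one. Cox6b2, a form of subunit VIb best known from testis and sperm, made up 32.0 to 49.8% of the summed level per length of Cox6b1 and Cox6b2, with a median of 39.5% over the 12 pools. It was at 14.6, 20.4 and 19.1 CPM in PND 13, 17.1, 11.2 and 18.5 CPM in PND 16 small, 17.7, 18.6 and 17.1 CPM in PND 16 large and 17.4, 13.9 and 17.0 CPM in PND 40 pools, so the cohorts overlapped, and it did not pass in any comparison. None of its 50-base words was shared with another gene. Cox6a2, the heart and muscle form of subunit VIa, had 3.60 to 15.8% of its family. Cox8c, another testis form, had 0 to 6.60%, and Ndufa4l2, a form induced by low oxygen, had 0 to 4.90%. Cox7a1, the heart and muscle form of subunit VIIa, had at most 0.633%, beside a median of 56.1% for Cox7a2 and 43.7% for Cox7a2l. In complex V the 3 genes of the c subunit, which encode the same mature protein of the membrane ring, were represented by Atp5g3 at 97.2 to 100% of their summed level, with the uncertainty over shared sequence given for Atp5g1 and Atp5g2.

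Atp5g3 itself was lower in older oocytes. It was at 17.1, 15.5 and 18.9 CPM in PND 13, 13.3, 13.1 and 8.19 CPM in PND 16 small, 9.86, 12.3 and 9.75 CPM in PND 16 large and 9.48, 10.1 and 9.26 CPM in PND 40 pools. All PND 13 pools were above all others, and the remaining cohorts overlapped. PND 40 vs. PND 13 gave -0.84 ± 0.19 (edgeR adjusted p = 0.00443), kept without any of the 6 pools at -0.93 to -0.76. Without the pools highest in granulosa markers it was -0.69 (edgeR adjusted p = 0.115, with 1 PND 13 pool). Competent vs. non-competent gave -0.50 ± 0.17 (edgeR adjusted p = 0.0356), which no longer passed without any 1 of the PND 13 or PND 40 pools or of PND 16 large replicates 1 and 3, with limma, with the replicate number as a block, or without the pools highest in granulosa markers. Atp5s, now called Dmac2l and once named as an ATP synthase coupling factor, was at 1.10, 1.25 and 1.68 CPM in PND 13 and 0.686, 0.358 and 0.331 CPM in PND 40 pools. Its log2 fold change in PND 40 vs. PND 13 was -1.55 ± 0.52 (edgeR adjusted p = 0.0356), and the call was lost without PND 13 replicate 1 or 3 or PND 40 replicate 2 or 3 (-1.67 to -1.35, edgeR adjusted p = 0.0501 to 0.12). Without the pools highest in granulosa markers it was -1.44 (edgeR adjusted p = 0.157, with 1 PND 13 pool). Of the catalytic head, Atp5a1 was at 238 to 334 CPM in non-competent and 321 to 358 CPM in competent pools, Atp5b at 169 to 231 and 227 to 253 CPM, and Atp5c1 at 15.1 to 19.5 and 13.0 to 20.5 CPM. None of these 3 passed in any comparison in the main fit. By adjusted p alone, some other settings gave a higher Atp5b. In PND 16 large vs. PND 16 small these were DESeq2, and the fits without PND 16 small replicate 2 or without the pools highest in granulosa markers. In competent vs. non-competent oocytes they were the fit without those pools and the fit with each cohort as its own group.

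PND 40 vs. PND 13, the cohorts furthest apart in age, gave 6 of 83 genes at the study's criteria, against 18.9% of all genes. Uqcrc1, Cox4i2, Atp5s, Ndufaf1 and Atp5g3 were lower and Ndufb2 was higher. Without the fold criterion 8 (9.64%) were higher and 6 (7.23%) lower, against 16.3% and 16.7% of all genes, and the median log2 fold change was 0.0493 beside 0.00443. The higher genes were Atp5e, Cox5a, Ndufaf2, Ndufaf4, Ndufb2, Ndufc2, Uqcr10 and Uqcrh, with 0 of the 4 complex II genes. Scaling by total counts turned the balance, with 2 higher and 7 lower and a median of -0.0252. The count of 6 fell to 3 without PND 13 replicate 3, and the count over all genes in that fit is not given here. Leaving out the pools highest in granulosa markers left 1 PND 13 pool, so the count of calls in that fit decides nothing. There Sdhb had a log2 fold change of -0.67, beside -0.41 in the main fit. With each of the 6 pools left out in turn, 2 to 6 genes were higher without the fold criterion. How many of all genes passed by adjusted p alone under these other settings was not counted.

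Cohorts were also compared within each competence class. In PND 16 small vs. PND 13 edgeR called 0 of 83 genes, against 0.373% of all genes, and 0 without the fold criterion, against 0.689% higher and 0.237% lower. At an unadjusted p under 0.05 there were 9 of the 83 genes, beside 2684 of all 13943. DESeq2 called 0 with the fold criterion and 1 without it. Without PND 16 small replicate 1, however, Uqcrc1 (-0.82, edgeR adjusted p = 0.0124), Atp5g3 (-0.68, edgeR adjusted p = 0.0437) and Uqcrfs1 (-0.62, edgeR adjusted p = 0.0243) were called lower. In PND 40 vs. PND 16 large 2 of 83 genes met the criteria, Uqcrc1 and Cox4i2, against 3.66% of all genes. Without the fold criterion 3 were lower, with Sdha, against 3.24%, and 0 were higher, against 3.59%. Here 16 of the 83 genes had an unadjusted p under 0.05, beside 3123 of all 13943. By adjusted p alone DESeq2 gave 5 lower and 0 higher. With only the 6 pools in the fit 10 were lower and 3 higher, while 0 passed with the replicate number as a block or, in 5 of 6 cases, when a single pool was dropped. How many of all genes passed by adjusted p alone in DESeq2 and in these refits was not counted, so their counts have no background. The median log2 fold change was -0.101 here, beside 0.00366 over all genes, and -0.0909 between PND 16 small and PND 13, beside -0.0255. The 5 comparisons share pools, so their counts are not independent of each other.

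PND 16 small replicate 3 was low for many of these genes. The median over the 83 genes of the log2 level relative to each gene's own mean was -0.157 in this pool and -0.124 to 0.0428 in the other non-competent pools, against 0.000219 to 0.145 in competent pools. For complex V it was -0.397 in this pool and -0.0562 to 0.0925 in the other 5 non-competent pools. Its granulosa marker sum of 258 CPM was above those of PND 13 replicate 2 and PND 16 small replicate 1 and below those of the 3 pools named above. What sets this pool apart was not tested.

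Of the genes around the chain, 33 assembly factors of complexes I to V and 17 regulators and factors of mitochondrial DNA upkeep were examined. So were the 8 electron carriers and subunits outside the symbol rule that were found in the count table. In competent vs. non-competent oocytes, without the fold criterion, 1 of the 16 tested regulators was higher and 5 were lower, beside 14.2% and 16.5% of all genes, with a median log2 fold change of -0.181. Gabpa, the DNA-binding subunit of nuclear respiratory factor 2, was at 11.0 to 16.7 CPM in non-competent pools, at 5.40, 4.42 and 7.21 CPM in PND 16 large and at 3.17, 2.83 and 2.87 CPM in PND 40 pools. The classes did not overlap, and the log2 fold change was -1.69 ± 0.23 (edgeR adjusted p = 0.000167). Tfam, which packages and transcribes mitochondrial DNA, was at 90.5 to 107 CPM in non-competent and 44.3 to 61.7 CPM in competent pools (-0.96 ± 0.08, edgeR adjusted p = 1.2e-05). Yy1, a zinc finger factor that binds promoters of many of these subunits, was at 25.3 to 49.5 CPM in non-competent and 12.3 to 24.0 CPM in competent pools (-1.10 ± 0.18, edgeR adjusted p = 0.000578). Polg2, the accessory subunit of the mitochondrial DNA polymerase (-0.84 ± 0.24, edgeR adjusted p = 0.0156), and Twnk, the helicase (-0.35 ± 0.11, edgeR adjusted p = 0.0212), were the other lower ones. The higher one was the coactivator Pprc1, by 0.25 ± 0.09 (edgeR adjusted p = 0.0371). Nrf1, nuclear respiratory factor 1, was at 49.8 to 99.8 CPM in non-competent and 56.3 to 62.8 CPM in competent pools, and did not pass in any comparison. Of the PGC-1 coactivators, Ppargc1b was at 22.3 to 30.1 CPM and Ppargc1a at 0.0819 to 0.478 CPM.

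Of the 30 tested assembly factors, 2 were higher and 4 lower in competent oocytes without the fold criterion, shares below the 14.2% and 16.5% of all genes, with a median log2 fold change of 0.1. Cox11, which delivers copper to complex IV, was at 4.11 to 7.06 CPM in non-competent, 2.29 to 2.62 CPM in PND 16 large and 1.37 to 1.47 CPM in PND 40 pools (-1.51 ± 0.23, edgeR adjusted p = 0.000344). Sco1, another copper chaperone of complex IV, was at 9.13 to 12.2 CPM in non-competent and 5.0 to 6.05 CPM in competent pools (-0.99 ± 0.12, edgeR adjusted p = 8.27e-05). Cox15, which makes heme a for complex IV, was lower with a log2 fold change of -0.64 ± 0.13 (edgeR adjusted p = 0.002), and so was Ttc19, a complex III factor, at -0.48 ± 0.10 (edgeR adjusted p = 0.00281). Uqcc1, an assembly factor of complex III, was higher, at 33.2 to 48.3 CPM in non-competent and 57.1 to 66.6 CPM in competent pools (0.72 ± 0.09, edgeR adjusted p = 8.84e-05), and so was Cox10, which acts before Cox15 in making heme a (0.26 ± 0.07, edgeR adjusted p = 0.00796). Of the 7 tested carriers and subunits outside the rule, Etfdh, which passes electrons from fatty acid oxidation to ubiquinone, was lower at 0.777 to 1.97 CPM in competent and 2.67 to 7.94 CPM in non-competent pools (-1.80 ± 0.32, edgeR adjusted p = 0.000872), and 0 were higher. Its 3 highest values, 7.94, 6.02 and 5.69 CPM, were those of the 3 pools highest in granulosa markers, whose part in this difference was not tested. PND 40 vs. PND 13 alone added, at the study's criteria, Cyc1, Ssbp1 (-0.90 ± 0.28, edgeR adjusted p = 0.0257), Atpaf1 (-0.74 ± 0.26, edgeR adjusted p = 0.0427) and Ttc19 among the lower and Ecsit (0.67 ± 0.22, edgeR adjusted p = 0.0305) among the higher genes, and PND 16 large vs. PND 16 small added Nubpl among the higher ones (0.81 ± 0.22, edgeR adjusted p = 0.0288).

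**Figure D5:**
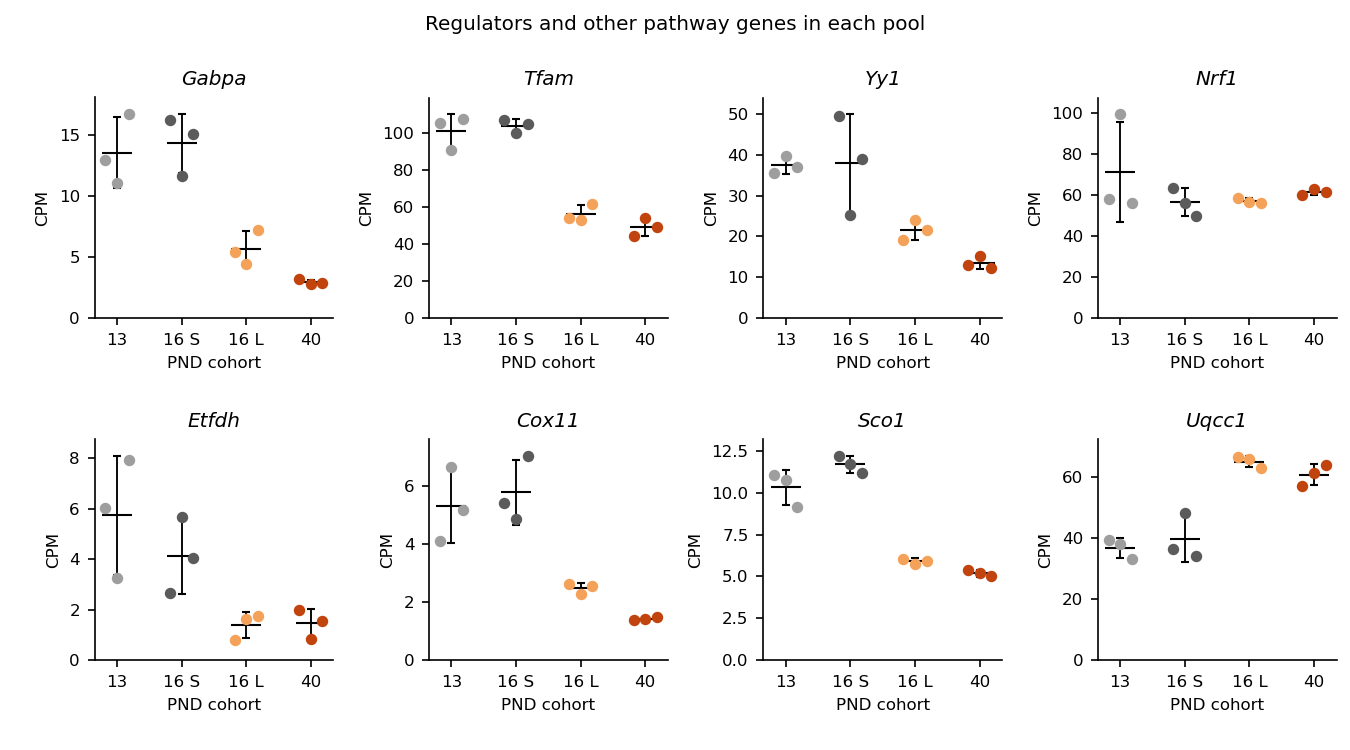
CPM in each of the 12 pools (points, in replicate order) with the cohort mean and SD (bars, n = 3) of 4 regulators and 4 other genes around the chain, with PND 16 small as 16 S and PND 16 large as 16 L. The CPM axes start at 0. Gabpa, Tfam, Yy1, Etfdh, Cox11 and Sco1 are lower and Uqcc1 is higher in all competent than in all non-competent pools, and Nrf1 overlaps between the classes.

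Because the classic regulators of these genes act on their promoters, the promoters of the chain were searched for 3 motifs on both strands: the palindrome of nuclear respiratory factor 1 by its name (its matches here read GCGCATGCGC or GCGCAGGCGC, or GCGCTTGCGC from the other strand), CCGGAAG for the ETS site of nuclear respiratory factor 2, and AANATGGCG for YY1. RefSeq promoters (build GRCm38.p6, 250 bases before to 50 after a transcription start, 300 bases in all) were matched by gene identifier for 76 of the 92 genes. The first motif was in the promoters of 19 of the 76 genes (25%), the second in 18 (23.7%) and the third in 11 (14.5%), beside 5.19%, 9.93% and 2.76% of the 27025 genes with a promoter in the table. How many of the 76 genes held at least 1 of the 3 motifs was not counted, so the next share sets no genes apart. Of the 9 genes that met the study's criteria in any comparison, 7 had a promoter in the table and 4 of these held a match. Their promoters are shown to place these matches, with matched letters in capitals:
Uqcrc1 (chr9:108936398-108936697, plus strand): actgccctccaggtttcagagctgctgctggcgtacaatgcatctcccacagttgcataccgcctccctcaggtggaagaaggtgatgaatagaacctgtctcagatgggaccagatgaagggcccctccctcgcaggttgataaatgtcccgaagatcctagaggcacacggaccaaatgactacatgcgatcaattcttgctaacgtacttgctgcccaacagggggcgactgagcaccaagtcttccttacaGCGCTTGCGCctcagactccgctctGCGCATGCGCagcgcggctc
Cox6a1 (chr5:115348909-115349208, minus strand): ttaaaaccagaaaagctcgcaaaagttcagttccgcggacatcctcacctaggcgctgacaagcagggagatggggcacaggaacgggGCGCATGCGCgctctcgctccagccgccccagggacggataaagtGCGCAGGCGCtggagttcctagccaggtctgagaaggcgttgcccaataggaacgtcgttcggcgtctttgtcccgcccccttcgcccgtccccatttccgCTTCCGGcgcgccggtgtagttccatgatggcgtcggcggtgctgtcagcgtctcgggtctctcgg
Ndufaf1 (chr2:119662785-119663084, minus strand): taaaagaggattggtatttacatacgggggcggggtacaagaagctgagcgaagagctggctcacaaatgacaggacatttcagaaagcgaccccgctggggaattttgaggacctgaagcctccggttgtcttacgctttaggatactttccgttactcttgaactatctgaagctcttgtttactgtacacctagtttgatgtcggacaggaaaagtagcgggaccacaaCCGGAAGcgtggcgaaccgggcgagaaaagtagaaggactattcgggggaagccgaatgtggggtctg
Atp5g3 (chr2:73911277-73911576, minus strand): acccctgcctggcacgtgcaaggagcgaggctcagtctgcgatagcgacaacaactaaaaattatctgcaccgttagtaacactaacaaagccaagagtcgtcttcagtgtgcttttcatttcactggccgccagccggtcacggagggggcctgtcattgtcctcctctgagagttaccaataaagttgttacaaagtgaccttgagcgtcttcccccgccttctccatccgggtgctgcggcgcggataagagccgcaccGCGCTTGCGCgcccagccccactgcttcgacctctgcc

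Uqcrc1, lower in competent oocytes, held 2 matches to the nuclear respiratory factor 1 motif within the transcribed part, beginning 6 and 31 bases after the start. Cox6a1, which was higher in competent oocytes, held 2 such matches at positions -162 and -117 and an ETS match at -16. The promoter of Ndufaf1 held an ETS match at -18, and that of Atp5g3 a nuclear respiratory factor 1 match 13 bases after the start. The promoters of Atp5s, Ndufb2 and Cox7a2l held 0 matches to these letters in this window. Uqcrc1 and Cox6a1, both with matches to the nuclear respiratory factor 1 motif, differed in opposite directions between the classes. A match describes these letters, and binding was not measured.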

How the data were processed

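RNA-Seq of 12 oocyte pools was analysed from the raw count table the authors deposited. Libraries were rRNA-depleted and directional, with reads of 50 bases. The submitters' processing notes name FastQC, STAR, HTSeq, DESeq2, HOMER and build mm10, and versions and the counting of reads with several matches are not given in the sources used here. The authors also deposited log2 values, log2 of the count divided by a size factor plus 1, used here for the limma alternative only. Competence groups were taken from the cohorts (3 pools each), and the study took oocytes of 3 mice per cohort to make 3 pools it calls independent. No label ties a pool to 1 animal, so p-values measure the spread between pools. In the tables, 4 columns of per-sample values were not mapped to a sample and were not used.

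Genes were filtered with filterByExpr (minimum count 10), scaled by TMM (factors 0.955 to 1.07) and tested with edgeR 4.0.16 (R 4.3.3) by the robust quasi-likelihood test over all 13943 genes with Benjamini-Hochberg adjustment, the pairwise comparisons in 1 model of 4 cohorts. SE is the log2 fold change divided by the root of F. Alternatives used DESeq2 1.42.0, limma 3.58.1, other scalings and filters, and leaving out each pool. Levels per length used the median transcript length in GENCODE M21 (GRCm38). The fit was tested on simulated data. Replicates differed by more than sampling noise in all 12 pairs (chi-square per gene 9.17 to 50.6). The members and gene lists were chosen with earlier results of these data known. Named were genes that met the criteria, isoform families, redox and catalytic subunits, the highest and lowest per length of each complex, and called genes of the lists. Others were named after their values were seen. An item withheld from the text is not reported here.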

Additional observations from a re-analysis of the deposited data

Results flagged for a closer look

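In each competence class, the highest or lowest of 6 pools was compared with the gap to its neighbor (Dixon's ratio, at its 95% critical value) for 94 groups of values. If each group came from a single normal population, about 1 in 20, or 4.7, would be flagged. Each group joins different cohorts and the groups share pools, so 4.7 is only a rough guide. There were 11 flags. PND 16 small replicate 3 was the low pool of 6 of them: Atp5a1 at 238 CPM (the next pool at 301), Cox7a2l at 15.0 (26.6), Ndufaf6 at 0.949 (2.24), Ndufv1 at 33.2 (60.6), Sdhd at 41.1 (55.5), and the median of complex V at -0.397 on the centred log2 scale (-0.0562). It also had the lowest total count, 17671193. The cause was not tested.

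The others were spread over 4 pools. Atp5g3 was at 12.3 CPM in PND 16 large replicate 2, and PND 40 replicate 2 was low for Cox6a1 at 17.8 CPM and Cox6b2 at 13.9 CPM. Ndufv2 was at 30.6 CPM in PND 40 replicate 3, and Ndufa4l2 was at 1.68 CPM in PND 13 replicate 2.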

How the results depend on the processing

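Of the counts of genes called and the medians, 84 of the values under settings other than leaving out a pool were classed as unchanged. A further 4 rose, 5 fell and 2 moved. Unchanged meant close to the value of the main fit, and whether a median kept its sign was not part of this class. Without the fold criterion the counts were 18 (competent vs. non-competent), 14 (PND 40 vs. PND 13) and 9 (PND 16 large vs. PND 16 small). Scaling by total counts moved the median log2 fold change from 0.0493 to -0.0252 in PND 40 vs. PND 13, a change of sign, and to -0.186 in PND 16 small vs. PND 13, where the median of all genes moved to -0.0666 and -0.124. With only the 6 pools of a comparison, 1 gene was called in PND 16 large vs. PND 16 small and 4 in PND 40 vs. PND 16 large, where a stricter filter gave 1. Leaving out the 3 pools highest in granulosa markers, chosen after seeing the data, gave 1 in PND 40 vs. PND 16 large. For PND 40 vs. PND 13 it left 1 PND 13 pool, so a count decides nothing there. Leaving out 1 pool gave 3 to 7 in PND 40 vs. PND 13, 1 to 3 in PND 16 large vs. PND 16 small (median 0.131 to 0.28), 0 to 1 in PND 40 vs. PND 16 large and 0 to 3 in PND 16 small vs. PND 13. The replicate numbers did not pair the pools (18 pairs, correlation -0.442 to 0.0753), and a replicate block left 0 calls in PND 40 vs. PND 16 large. Counts over all genes in these refits are not given here. A change particular to the genes of the chain therefore cannot be read from these counts. Except where stated, causes were not tested. Genes with few reads, such as Cox4i2, are limited by depth, and RNA per oocyte was not measured.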
